A study of Oreochromis niloticus with 6 samples.

Results

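Potassium channel genes, whose symbols begin with kcn, were followed in gill RNA-seq libraries of Nile tilapia (Oreochromis niloticus) of the GIFT strain, a line bred for aquaculture. A table row was a member if its gene name, in lower case and without a copy ending in brackets, started with kcn, and this held for 144 of the 40538 rows, under 96 symbols. The 3 libraries labelled hypoxia came from fish whose water was brought to about 1 mg/L dissolved oxygen within 30 min by bubbling nitrogen, and the 3 labelled control from fish kept at 5 mg/L, with gills of both taken at 96 h. The labels give 1 layout with 3 tanks of 15 fish per group and another in which each group had 4 replicates and a 500 L tank held 30 fish. They do not tie a library to a tank or fish or say whether fish were pooled, so p-values measure only the spread between these samples. All fish were of the GIFT strain.

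Potassium channels are membrane proteins that let potassium leave or enter a cell along its gradient and so set the membrane potential. Inward rectifiers (kcnj) and tandem-pore channels (kcnk) carry resting or background potassium current, voltage-gated and calcium-activated channels open on a stimulus, and auxiliary subunits modify the pore-forming ones. In fish gill, ionocytes recycle and secrete potassium through such channels, with a kcnj1 channel known from Mozambique tilapia, and the oxygen-sensing neuroepithelial cells studied in zebrafish respond to low oxygen when a background potassium current is inhibited.

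The values are FPKM, fragments scaled by transcript length and by the library's mapped fragments. Levels can be compared between rows as far as each row's transcript length is right. That length was not checked for transcripts assembled from the reads. Library sums lay between 466826 and 483691 FPKM in the libraries labelled hypoxia and between 438405 and 455738 in those labelled control. The number of sequenced fragments is unknown, but relative depth could be estimated from low values. It was read as the most frequent ratio of a row's value in hypoxia replicate 1 to its value in another library. Rows with a single transcript and nonzero values under 0.15 FPKM in both libraries were used. Set to hypoxia replicate 1, hypoxia replicates 2 and 3 had 1.06 and 1.07 times its depth, and the libraries labelled control 1.09 to 1.21 times. A gene known to be induced by low oxygen went against the labels: egln3, which marks the hypoxia-inducible factor for degradation, measured 3.25, 2.55 and 3.95 FPKM in the libraries labelled hypoxia, against 112, 50.4 and 46.4 FPKM in those labelled control. Groups are therefore named by their labels, and every direction rests on them. Across tested rows, which are genes and not replicates, Pearson correlations of log2 values between libraries of the same group were 0.853 to 0.901, and 0.80 to 0.854 between libraries of different groups.

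Potassium channel rows were low in these gills, and tandem-pore channels were the highest among those that rest on an annotated transcript. Only 28 of the 144 rows (19.4%) averaged at least 1 FPKM over the 6 libraries, the filter for testing, against 61.9% of all rows, and 57 rows averaged under 0.1 FPKM. The 28 rows carried 23 symbols. Of the 144 rows, 99 hold an Ensembl transcript and 45 hold only a transcript assembled from the reads. The tested share was 8 of the 99 rows with an Ensembl transcript and 20 of the 45 without, beside 64.7% and 59.6% over all such rows. No assembled-only member averaged under 0.1 FPKM, whereas 57 of the Ensembl ones did. The same contrast ran through the whole table, with 30 of 22041 assembled-only rows and 3255 of 18497 Ensembl rows under 0.1 FPKM, so it is not particular to potassium channels. Assembled-only rows often sit beside another row of the same symbol (up to 6 rows for kcnh1b and kcnc2), and whether they are parts of that channel's transcript was not tested. The filter boundary ran through closely spaced values: kcnh3 (MSTRG.24285) and kcnc3a (MSTRG.25902) averaged 1.021 and 1.023 FPKM just inside it, and kcnc2 (MSTRG.29816) 0.999 and kcnma1 (MSTRG.5349) 0.993 FPKM just outside.

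**Figure D1:**
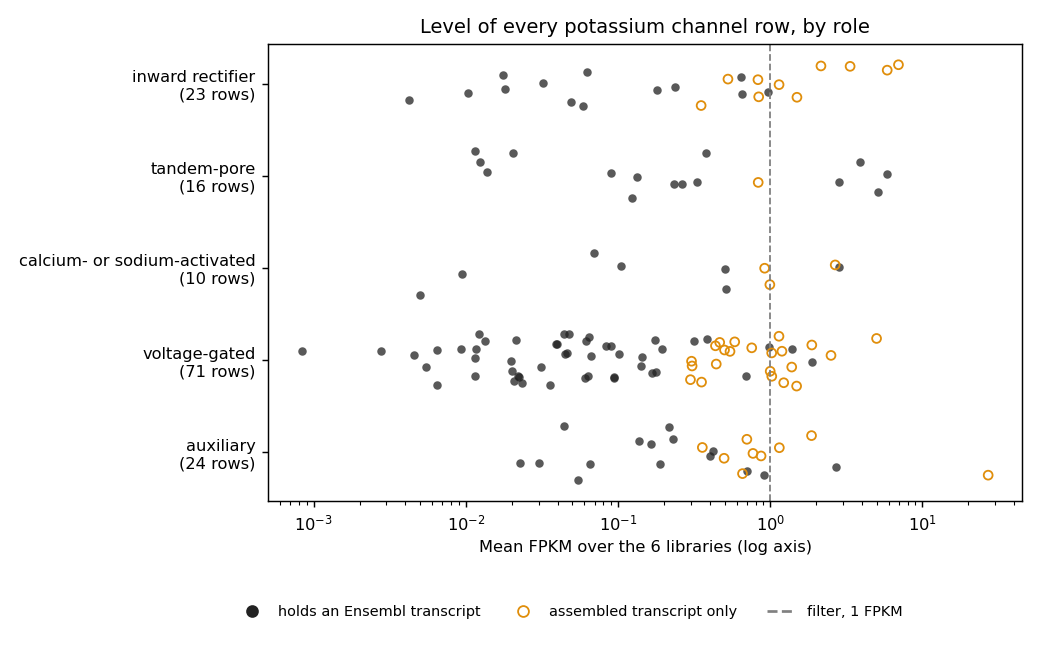
Mean FPKM over the 6 libraries (log axis) for each of the 144 potassium channel rows, grouped by role. Filled points hold an Ensembl transcript, open points only an assembled one, and the dashed line is the 1 FPKM filter. No filled inward rectifier point lies to the right of the line, and 4 filled tandem-pore points do.

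The comparison of libraries labelled hypoxia with those labelled control asks which channels differ after 96 h of low oxygen. Among potassium channels kcnk1b passed the test, upward, and the other 27 tested rows did not. Values were compared with limma on log2(FPKM + 1) over all 25111 tested rows, with Benjamini-Hochberg adjustment and a threshold of 0.05. The members' count of 1 higher and 0 lower of 28 stands beside 6.77% of all tested rows called, 3.46% higher and 3.3% lower. An unadjusted p under 0.05 was reached by 4 member rows. The median log2 change was 0.06 over the members and 0.05 over all tested rows, and 16 member rows lay above 0 and 12 below it. With TPM scaling, median-of-ratios scaling or quantile normalization the split became 14 and 14. Groups did not overlap in 6 member rows, 4 higher and 2 lower in the libraries labelled hypoxia, and among all tested rows 33.2% did not overlap, 19.1% higher and 14% lower.

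**Figure D2:**
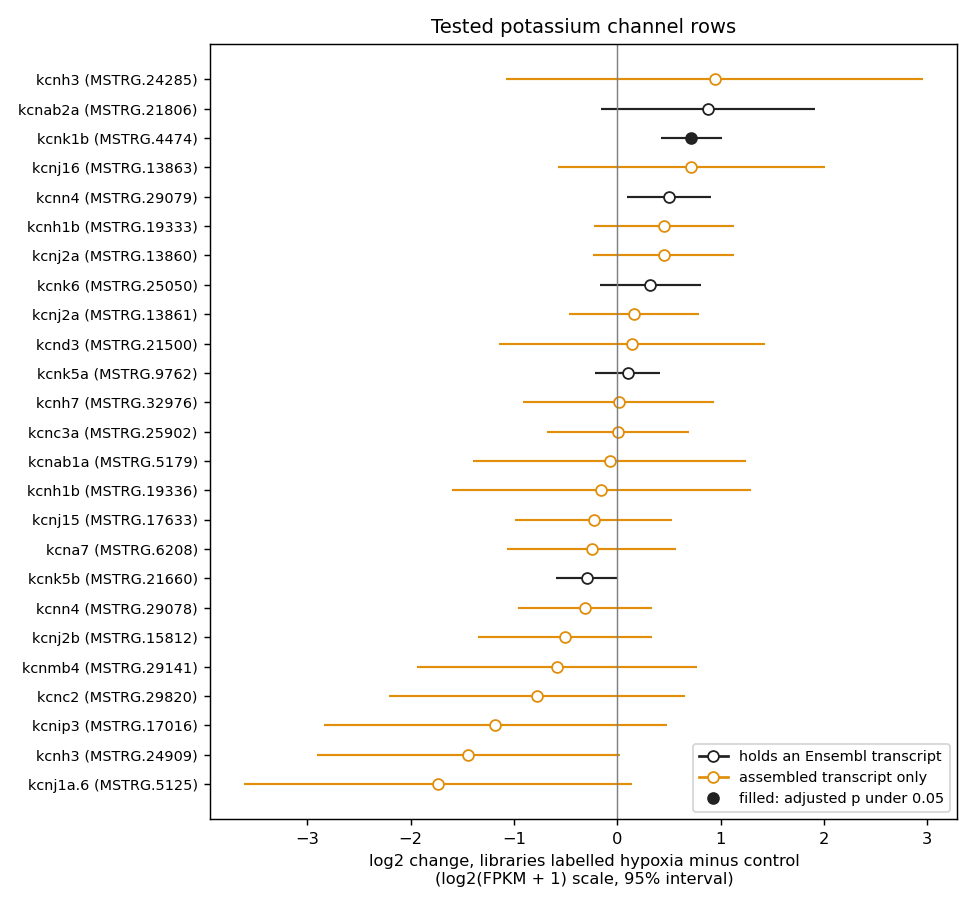
Log2 change (hypoxia minus control, log2(FPKM + 1) scale) of 25 tested rows, with 95% intervals. Black rows hold an Ensembl transcript and orange rows only an assembled one. Among them kcnk1b, the filled point, passed the threshold, and the changes run from -1.74 for kcnj1a.6 to 0.94 for kcnh3 (MSTRG.24285). Both ends rest on listed zeros: this kcnh3 row is at 0 in 5 libraries and kcnj1a.6 in 1.

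Rows with an Ensembl transcript varied less between libraries than assembled-only rows. The median standard error of the log2 change was 0.18 in the 8 tested rows with an Ensembl transcript and 0.45 in the 20 without, and over all tested rows it was 0.17 and 0.30. Of those 8 rows 1 was called, beside 8.46% of all tested rows with an Ensembl transcript, and in 4 the groups did not overlap, beside 40.5%. Of the 8, 7 lay above 0 (median log2 change 0.41), and over all 11966 tested rows with an Ensembl transcript 52.5% did (median 0.02). Summed over the 99 rows with an Ensembl transcript, potassium channels reached 44.0, 48.2 and 44.6 FPKM in the libraries labelled hypoxia, against 34.6, 36.2 and 35.4 FPKM in those labelled control. The groups did not overlap, also with each library scaled to the same total (43.4, 46.2 and 42.5 in the libraries labelled hypoxia, against 34.9, 38.05 and 37.2 in those labelled control) and without kcnk1b (37.1, 40.2 and 36.9 FPKM in those labelled hypoxia, against 30.9, 31.7 and 31.0 FPKM in those labelled control). This split by annotation was made after the values were seen, so it is given with no test. Over all rows with an Ensembl transcript the sums were also higher in the libraries labelled hypoxia, at 327751 to 348438 FPKM, against 301814 to 320959 FPKM in those labelled control. The 45 assembled-only rows summed to 64.3, 91.5 and 77.03 FPKM in the libraries labelled hypoxia, against 106, 106 and 74.7 FPKM in those labelled control, and these overlapped.

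Tandem-pore (kcnk) channels carry background potassium current and hold the only call. Of 16 kcnk rows 4 were tested, all with an Ensembl transcript. kcnk1b, which encodes TWIK-1, a weakly inward-rectifying background channel, was at 6.90, 7.998 and 7.65 FPKM in the libraries labelled hypoxia, against 3.69, 4.47 and 4.40 FPKM in those labelled control. The lowest library labelled hypoxia lay above the highest labelled control. It averaged 7.52 ± 0.561 FPKM in the libraries labelled hypoxia and 4.19 ± 0.435 FPKM in those labelled control (SD, n = 3 each), a 1.80-fold difference (log2 change 0.72 ± 0.12 SE, limma adjusted p = 0.0289). The call was lost when any 1 library was left out, with adjusted p of 0.0869, 0.0622 and 0.106 without hypoxia replicates 1, 2 and 3 and of 0.0583, 0.0806 and 0.0761 without control replicates 1, 2 and 3. The fold then stayed between 1.69 and 1.87, and the log2 change between 0.65 and 0.77. In bulk libraries such as these, more cells of a type and more RNA per cell cannot be told apart.

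**Figure D3:**
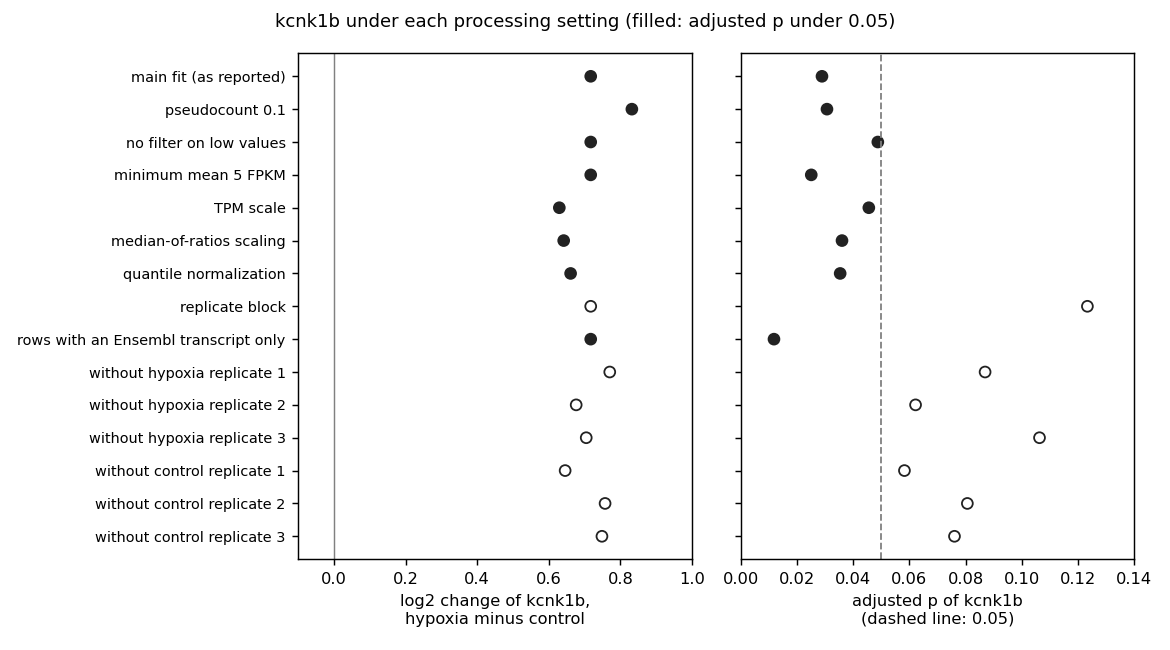
Log2 change (left) and limma adjusted p (right) of kcnk1b in the fit as reported and under 14 alternatives. Filled points have an adjusted p under 0.05, the dashed line. The change lies between 0.63 and 0.83 throughout, while the adjusted p crosses the line with the replicate block and with any 1 library left out.

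The other tested kcnk rows did not pass. kcnk5b, a copy of TASK-2, a background channel sensitive to extracellular pH, was at 5.04, 4.00 and 4.34 FPKM in the libraries labelled hypoxia, against 5.38, 5.88 and 5.80 FPKM in those labelled control. All 3 libraries labelled hypoxia lay below the control range (log2 change -0.30 ± 0.12 SE, 95% interval -0.59 to 0.00, adjusted p = 0.199). Its paralog kcnk5a was at 3.93, 4.04 and 4.16 FPKM in the libraries labelled hypoxia, against 3.20, 4.21 and 3.78 FPKM in those labelled control, which overlapped (log2 change 0.10, interval -0.22 to 0.41). kcnk6, which encodes TWIK-2, was at 2.996, 4.41 and 2.50 FPKM in the libraries labelled hypoxia, against 2.42, 2.08 and 2.69 FPKM in those labelled control, and the groups overlapped. Its log2 change of 0.32 (interval -0.17 to 0.81, adjusted p = 0.372) was 0.14 without hypoxia replicate 2.

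Over the 6 libraries the tandem-pore levels ran in the order kcnk1b (5.85 FPKM), kcnk5b (5.07), kcnk5a (3.89) and kcnk6 (2.85). In the libraries labelled control alone, kcnk5b (5.69 ± 0.271 FPKM) stood above kcnk1b (4.19 ± 0.435), and in those labelled hypoxia kcnk1b (7.52 ± 0.561) stood above kcnk5b (4.46 ± 0.53). The ranges of kcnk1b and kcnk5a overlapped in the libraries labelled control, and so did those of kcnk5a and kcnk5b in the libraries labelled hypoxia.

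The remaining 12 kcnk rows were under the filter. They include the TASK channels kcnk3 and kcnk9, which in mammals carry an oxygen-sensitive background current of the carotid body. kcnk3a was listed at 0, 0.311 and 0.092 FPKM in the libraries labelled hypoxia, against 0, 0.281 and 0.111 FPKM in those labelled control. kcnk3b lay at 0.0599 to 0.121 FPKM in the libraries labelled hypoxia and at 0.0592 to 0.0889 FPKM in those labelled control. The Ensembl row of kcnk9 (MSTRG.7731) was at 0 in all 3 libraries labelled hypoxia, against 0, 0.0991 and 0.0224 FPKM in those labelled control. An assembled-only row beside it (MSTRG.7732) was at 0.418, 0.53 and 0.138 FPKM in the libraries labelled hypoxia, against 3.18, 0.507 and 0.219 FPKM in those labelled control. All of these groups overlapped.

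**Figure D4:**
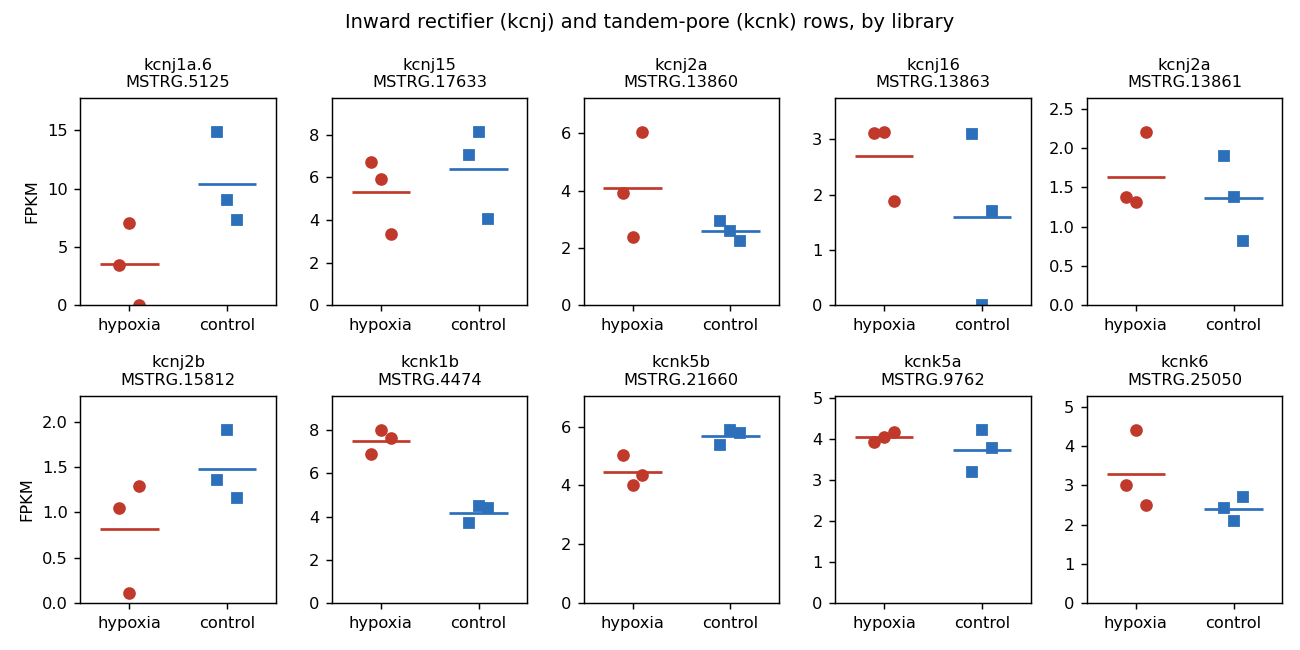
FPKM in each library for the 6 tested inward rectifier rows and the 4 tested tandem-pore rows (circles, hypoxia; squares, control; lines, group means). The groups separate in kcnk1b, kcnk5b and kcnj1a.6 and overlap in the other 7 panels.

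Inward rectifiers (kcnj) pass potassium more easily into than out of the cell. Of 23 kcnj rows 6 were tested, under 5 symbols, and none passed in either direction (adjusted p = 0.225 to 0.731; median log2 change -0.03). All 6 are assembled-only rows, and their 5 symbols have no row with an Ensembl transcript. kcnj1a.6, a copy of the renal outer medullary potassium channel ROMK, was at 3.47, 7.04 and 0 FPKM in the libraries labelled hypoxia, against 14.8, 9.05 and 7.35 FPKM in those labelled control. The highest library labelled hypoxia lay just under the lowest labelled control, and 1 library is listed at 0. Its log2 change was -1.74 ± 0.77 SE (95% interval -3.61 to 0.14, adjusted p = 0.225), and -0.87 without hypoxia replicate 3, the library at 0. The second kcnj1 row, kcnj1b, was at 0.0254 FPKM in hypoxia replicate 3 and at 0 in the other 5 libraries.

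The subunits of the basolateral channels of transporting epithelia are kcnj10 (Kir4.1), kcnj15 (Kir4.2) and kcnj16 (Kir5.1). kcnj15 was at 6.71, 5.91 and 3.34 FPKM in the libraries labelled hypoxia, against 7.06, 8.11 and 4.06 FPKM in those labelled control. The groups overlapped (log2 change -0.23, interval -0.99 to 0.53), and without hypoxia replicate 3 the sign turned (0.02). kcnj16, a subunit that pairs with either of the others, was at 3.11, 3.12 and 1.89 FPKM in the libraries labelled hypoxia, against 3.09, 0 and 1.70 FPKM in those labelled control. Its log2 change of 0.71 (interval -0.58 to 2.01) was 0.14 without control replicate 2, the library at 0, and 1.15 without control replicate 1. The 5 rows named kcnj10 or kcnj10a were all under the filter, the highest at 0.829 FPKM over the 6 libraries (MSTRG.12518).

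The classical inward rectifier Kir2.1 is encoded by kcnj2. kcnj2a (MSTRG.13860) was at 3.90, 2.38 and 6.03 FPKM in the libraries labelled hypoxia, against 2.93, 2.60 and 2.23 FPKM in those labelled control. Hypoxia replicate 3 stood highest and replicate 2 lay within the control range (log2 change 0.45, interval -0.23 to 1.13; 0.19 without hypoxia replicate 3 and 0.72 without hypoxia replicate 2). A second kcnj2a row (MSTRG.13861) was at 1.38, 1.31 and 2.20 FPKM in the libraries labelled hypoxia, against 1.90, 1.38 and 0.816 FPKM in those labelled control, which overlapped (log2 change 0.16, and -0.01 without control replicate 3). The other copy, kcnj2b, was at 1.04, 0.105 and 1.28 FPKM in the libraries labelled hypoxia, against 1.35, 1.91 and 1.16 FPKM in those labelled control. Its log2 change of -0.51 (interval -1.35 to 0.34) was -0.18 without hypoxia replicate 2, the lowest library.

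ATP-sensitive channels join the pore subunits kcnj8 or kcnj11 with the sulfonylurea receptors abcc8 or abcc9, and close when ATP is high. kcnj11 was at 1.07, 0.861 and 0.712 FPKM in the libraries labelled hypoxia, against 1.18, 0.784 and 1.17 FPKM in those labelled control, which overlapped and averaged under the filter. The Ensembl row of kcnj8 (MSTRG.13200) was at 0.952, 0.656 and 0.76 FPKM in the libraries labelled hypoxia, against 0.272, 0.524 and 0.773 FPKM in those labelled control, which overlapped. Its assembled-only row (MSTRG.13201) was at 1.34, 0.59 and 1.58 FPKM in the libraries labelled hypoxia, against 0.511, 0.493 and 0.516 FPKM in those labelled control, with no overlap. The receptor rows with an Ensembl transcript were lower still, with abcc8 at 0.196 to 0.213 FPKM in the libraries labelled hypoxia and 0.158 to 0.239 FPKM in those labelled control, and the Ensembl-annotated abcc9 row (MSTRG.13197) at 0.126 to 0.18 FPKM in those labelled hypoxia and 0.0532 to 0.114 FPKM in those labelled control. An assembled-only abcc9 row (MSTRG.13198) was at 1.15, 0.593 and 0.344 FPKM in the libraries labelled hypoxia, against 0.458, 0.517 and 0.164 FPKM in those labelled control, which overlapped. None of these rows was tested.

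The voltage-gated families, most of whose channels open on depolarization, made up 71 of the rows. Of these 12 were tested and none passed (limma adjusted p = 0.0766 to 0.988). Grouped by symbol, they take in modifier subunits (kcnf, kcng, kcns and kcnv), which are not counted as auxiliary here. kcnq5b, a channel of the muscarine-sensitive family, lay just under the filter at 1.47, 1.17 and 1.17 FPKM in the libraries labelled hypoxia, against 0.74, 0.508 and 0.829 FPKM in those labelled control. Its groups did not overlap, and it is named as 1 of the 5 highest rows under the filter. The highest of these was a kcnc2 row (MSTRG.29816), of the fast Kv3 channels, at 1.25, 0.903 and 1.80 FPKM in the libraries labelled hypoxia, against 0.74, 0.398 and 0.905 FPKM in those labelled control, where hypoxia replicate 2 lay just under control replicate 3.

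Other voltage-gated rows were uneven between libraries. The assembled-only KCNH3 row MSTRG.24909, named for a brain-type ether-a-go-go channel, was at 0.591, 0.513 and 0 FPKM in the libraries labelled hypoxia, against 3.70, 0.479 and 5.97 FPKM in those labelled control. Control replicate 2 lay among the libraries labelled hypoxia (log2 change -1.44 ± 0.60 SE, adjusted p = 0.203). A further row, kcnh3 MSTRG.24285, was at 6.13 FPKM in hypoxia replicate 2 and at 0 in the other 5 libraries. The assembled-only kcnc2 row MSTRG.29820 was at 0, 3.02 and 0 FPKM in the libraries labelled hypoxia, against 1.64, 2.24 and 1.39 FPKM in those labelled control. It overlapped (log2 change -0.78, adjusted p = 0.451) and passed without hypoxia replicate 2 (log2 change -1.45, adjusted p = 0.0421), the library that holds its highest value. Of the 28 tested rows, 8 are listed at 0 in at least 1 library, all of them assembled-only. An exact 0 in such a table can be a failed estimate.

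Channels opened by calcium or sodium made up 10 rows, of which 2 were tested and neither passed. Both were kcnn4, named for an unadjusted p under 0.05 in 1 of them, the intermediate-conductance calcium-activated channel of red cells, T cells and epithelia. The row with an Ensembl transcript (MSTRG.29079) was at 3.24, 3.90 and 3.28 FPKM in the libraries labelled hypoxia, against 2.70, 1.71 and 2.12 FPKM in those labelled control, with no overlap (log2 change 0.50 ± 0.17 SE, interval 0.09 to 0.91, adjusted p = 0.132). The assembled-only row with the neighbouring locus number (MSTRG.29078) was at 2.87, 2.79 and 1.27 FPKM in the libraries labelled hypoxia, against 3.84, 2.80 and 2.45 FPKM in those labelled control, and lay on the other side of 0 (log2 change -0.31, interval -0.96 to 0.34; -0.06 without hypoxia replicate 3). Under the filter, both rows of kcnn1a, a small-conductance calcium-activated channel, were higher in all 3 libraries labelled hypoxia, the higher of them (MSTRG.1083) at 1.21, 1.27 and 1.43 FPKM in the libraries labelled hypoxia, against 0.298, 0.836 and 0.461 FPKM in those labelled control. KCNMA1, the large-conductance calcium-activated pore, was at 1.73, 0.721 and 1.11 FPKM in the libraries labelled hypoxia, against 1.52, 0.575 and 0.308 FPKM in those labelled control, in its higher row (MSTRG.5349), which is assembled-only and overlapped. Its row with an Ensembl transcript (MSTRG.5348) was at 1.05, 0.423 and 0.564 FPKM in the libraries labelled hypoxia, against 0.288, 0.372 and 0.308 FPKM in those labelled control, with no overlap.

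Auxiliary subunits made up 24 rows, of which 4 were tested and none passed (adjusted p = 0.257 to 0.95). The member row with the highest level was an assembled-only row of KCNIP3 (MSTRG.17016), a calcium-binding partner of Kv4 channels. It was at 4.20, 27.97 and 23.9 FPKM in the libraries labelled hypoxia, against 31.3, 48.3 and 26.6 FPKM in those labelled control. Hypoxia replicate 1 stood far below the other 5 libraries (log2 change -1.18, interval -2.84 to 0.48, adjusted p = 0.331; -0.39 without that library). The neighbouring KCNIP3 row was at 0.206 to 0.558 FPKM in every library. kcnab2a (MSTRG.21806), a beta subunit of Kv1 channels, was at 2.03, 4.50 and 4.69 FPKM in the libraries labelled hypoxia, against 1.80, 2.74 and 0.461 FPKM in those labelled control, and the groups overlapped (log2 change 0.88, interval -0.16 to 1.91; 0.49 without control replicate 3). A further 8 tested rows (kcnab1a, kcnmb4, both kcnh1b rows, kcnh7, kcna7, kcnd3 and kcnc3a) averaged 1.023 to 2.51 FPKM over the 6 libraries and had adjusted p of 0.361 to 0.988.

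Among the 116 rows under the filter, none of which was tested, 15 were higher and 4 lower in all libraries labelled hypoxia than in any labelled control, while 16.6% of all rows under the filter did not overlap, 11.3% higher and 5.26% lower. Of these 116, 68 are listed at 0 in at least 1 library. The values of the rows named next were seen first. kcna4, a fast-inactivating Kv1 channel, was at 0.316, 0.207 and 0.434 FPKM in the libraries labelled hypoxia, against 1.16, 1.21 and 0.803 FPKM in those labelled control. kcne4, an inhibitory beta subunit, was at 1.33, 1.09 and 1.13 FPKM in the libraries labelled hypoxia, against 0.845, 0.435 and 0.594 FPKM in those labelled control. kcna6a was at 0.109, 0.434 and 0.305 FPKM in the libraries labelled hypoxia and listed at 0 in all 3 labelled control. When all 40538 rows were fitted with no filter, kcnk1b was again the only member called (adjusted p = 0.0488).

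Genes that work beside potassium channels were taken from 4 lists: partners and regulators, HCN and CNG channels, sodium pump subunits, and cation-chloride cotransporters with CFTR. Of their 43 tested rows 2 were higher and 2 lower, beside the 3.46% and 3.3% of all tested rows given above. In the partner list (23 tested rows, median log2 change 0.15) kinases that phosphorylate cation-chloride cotransporters were called in opposite directions. oxsr1b was at 7.02, 8.37 and 7.06 FPKM in the libraries labelled hypoxia, against 16.8, 16.7 and 13.1 FPKM in those labelled control (log2 change -0.96 ± 0.14 SE, adjusted p = 0.0211), and stk39 at 5.84, 4.601 and 5.26 FPKM in the libraries labelled hypoxia, against 1.92, 2.96 and 2.28 FPKM in those labelled control (log2 change 0.89 ± 0.16 SE, adjusted p = 0.0355). ank3, an anchor of membrane channels, was at 5.67, 4.44 and 5.19 FPKM in the libraries labelled hypoxia, against 2.82, 3.08 and 3.08 FPKM in those labelled control (adjusted p = 0.0487). The related rows oxsr1 (MSTRG.27055) and ank3a (MSTRG.1255) overlapped and were not called. Their log2 changes were 0.07 and -0.08 (limma adjusted p = 0.718 and 0.824). The calls of stk39 and ank3 were lost with any 1 library left out, and that of oxsr1b without hypoxia replicate 1 or 3 or control replicate 1 or 2. On the TPM scale or with no filter the calls of stk39 and ank3 were lost, and with the replicate block that of oxsr1b as well. That of ank3 was also lost with a pseudocount of 0.1, median-of-ratios scaling or quantile normalization.

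The hyperpolarization-activated channel hcn3 carries potassium and sodium. Its assembled-only row MSTRG.18972, the 1 tested row of its list, was at 13.5, 16.0 and 8.94 FPKM in the libraries labelled hypoxia, against 21.6, 19.9 and 22.2 FPKM in those labelled control, with no overlap (adjusted p = 0.0974). A tested row outside the list, named for both hcn3 and pklr (MSTRG.16924), holds 2 Ensembl transcripts. Its groups overlapped (log2 change 0.12, limma adjusted p = 0.819). In the sodium pump list none of 5 tested rows passed (median log2 change 0.03). The beta subunit atp1b1a averaged 86.7 ± 12.4 FPKM in the libraries labelled hypoxia and 108 ± 21.7 FPKM in those labelled control (SD, n = 3 each). The cotransporter list held 14 tested rows (median log2 change 0.07), of which 1 was called lower.

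Marker genes of gill and other cell types were measured in the same libraries, and of those lists only skeletal muscle and T cell markers had more than 1 row called higher. Skeletal muscle markers (11 higher, 0 lower of 36 tested rows) summed to 2018 to 2422 FPKM in the libraries labelled hypoxia and 1809 to 2522 FPKM in those labelled control, with 1 row averaging 1235 FPKM in that sum. Of the 36 rows 32 lay above 0 (median log2 change 0.79), and the groups did not overlap in 23 that were higher and 3 that were lower in the libraries labelled hypoxia. Over all tested rows, 19.1% were higher and 14% lower without overlap. The counts of called markers stand beside 3.46% of all tested rows called higher and 3.3% called lower. T cell markers (3 higher, 0 lower of 9) summed to 116 to 134 FPKM in the libraries labelled hypoxia and 58.1 to 80.5 FPKM in those labelled control, with no overlap. Neuron and glia markers (1 higher, 0 lower of 12) summed to 53.7 to 69.1 FPKM in the libraries labelled hypoxia and 46.6 to 49.5 FPKM in those labelled control, and macrophage and granulocyte markers (1 higher, 1 lower of 12) to 147 to 162 FPKM under the hypoxia label and 121 to 133 FPKM under the control label, neither with overlap. Ionocyte markers (1 higher, 0 lower of 19) summed to 695 to 816 FPKM in the libraries labelled hypoxia and 635 to 701 FPKM in those labelled control, and gill epithelium markers (0 of 10 called) to 2935 to 4125 FPKM under the hypoxia label and 2417 to 2954 FPKM under the control label, both overlapping. Row by row, 6 tested neuron and glia rows lay above 0 and 6 below it (median log2 change 0.04). For ionocyte rows the split was 8 and 11 (median -0.10), for macrophage and granulocyte rows 8 and 4 (median 0.25). T cell rows split 8 and 1 (median 0.84). The marker sums were not scaled to the same library total, so whether they separate after scaling was not tested. Of the smooth muscle and pericyte (15), endothelial (13) and erythrocyte (7) rows tested, none was called, and the sums overlapped. No row of the whole table was at 0 in all 6 libraries, so the same holds for these lists and says nothing of the markers. Some listed symbols have no row, as in the T cell list (14 symbols, 9 rows). The part of these cell types in the higher kcnk1b level was not tested.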

How the data were processed

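Gill RNA of 6 libraries, 3 labelled hypoxia and 3 labelled control, was available as 1 table of FPKM, deposited by the authors. HISAT and StringTie are named in the submitters' processing notes, with no version; for the genome build the sources used here name none. StringTie loci (MSTRG) can split or merge genes, and near-identical copies can share reads, so rows of duplicated symbols are uncertain. Counting by strand is not stated.

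Values were taken to log2(FPKM + 1), which understates changes of low genes. Rows averaging at least 1 FPKM were tested with limma 3.58.1 (eBayes with trend) in R 4.3.3, two-sided, adjusted by Benjamini-Hochberg over all 25111 of them. Intervals are 95% limma intervals. Precision is limited to the spread over 3 libraries. The fit was tested on simulated data. Symbols of 56 of the 96 members occur in the RefSeq table for O_niloticus_UMD_NMBU, which gives no sequence or matching identifier, so no sequence is shown. Named are all tested kcnj and kcnk rows, calls, the 5 highest levels, the 3 largest changes each way, the 5 highest untested rows, and from each partner list the calls or the 2 smallest p; others are said to be. A few rows under the rule were left out of the text. Members and lists were chosen with earlier results of these data known. Same-numbered libraries did not deviate together (r = -0.06, -0.04 and -0.12), so the numbers were not used as pairs. Alternatives were a pseudocount of 0.1, no filter, a minimum of 5 FPKM, quantile normalization, TPM scale, scaling by median of ratios, the replicate block, each library left out, and, chosen after seeing the data, rows with an Ensembl transcript only.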

Additional observations from a re-analysis of the deposited data

How the results depend on the processing

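The log2 change of kcnk1b stayed between 0.63 and 0.83 over 14 alternatives. The count of 1 potassium channel row called higher, the tandem-pore one, became 0 with the replicate block (kcnk1b adjusted p = 0.123) and was 0 without any 1 library. The count of 0 called lower, and of 0 among voltage-gated rows, ranged from 0 to 1 with 1 library left out. Over the 28 tested rows 341 of 349 recomputed values kept their side of the threshold, but 27 of these rows were not called in the main fit. The called row, kcnk1b, kept its call in 7 of 14 alternatives and its sign in all of them. These include the 5 FPKM filter, which kcnk1b passed although its mean in the libraries labelled control was 4.19 FPKM. In 8 rows, none called in the main fit, the log2 change took the other sign, or 0, under at least 1 setting. Among partner and transport rows the 2 called higher became 1 with a pseudocount of 0.1, median-of-ratios scaling or quantile normalization. They became 0 on the TPM scale, with no filter or with the replicate block, and were 0 without any 1 library. With at least 5 FPKM required the count was also 0, but stk39 (3.81 FPKM) and ank3 (4.05 FPKM) were then under the filter and not tested. The 2 called lower became 1 with no filter and 0 with the replicate block, and ranged from 0 to 1 with 1 library left out. Over all rows the 1699 calls (870 higher, 829 lower) became on the TPM scale 593 higher and 942 lower, 700 and 1029 with median-of-ratios scaling, 1058 in all with no filter, 2 with the replicate block and 255 to 1575 with 1 library left out. With at least 5 FPKM required 1667 of 11390 tested rows were called (14.6%), and with Ensembl rows only 1929 of 11966 (16.1%). In the main fit the share was 6.77%, so a call kept under these 2 settings met a more permissive fit. The same-numbered libraries share only a number, so a call lost under the block says nothing of its size. The depth is unknown, which limits what can be said of rows under 1 FPKM. With no filter all 144 members were tested and 1 was called.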

Other observations

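The table's own gene ontology marks 54 further rows with potassium channel activity whose names do not begin with kcn, of which 25 were tested and 1 passed, tmem38a. This trimeric cation channel of the sarcoplasmic reticulum carries potassium to balance calcium release. It was at 9.72, 15.3 and 11.04 FPKM in the libraries labelled hypoxia, against 5.62, 1.76 and 1.87 FPKM in those labelled control (log2 change 1.78 ± 0.38 SE, limma adjusted p = 0.0494). It is named after its values were seen. The call was kept in 3 of 14 alternatives: without control replicate 1 (adjusted p = 0.0267), with at least 5 FPKM required, and with Ensembl rows only. It was lost without any other single library (0.0975 to 0.141). TPM scaling, median-of-ratios scaling, quantile normalization, a pseudocount of 0.1, no filter and the replicate block each lost it too. Skeletal muscle markers were called higher in 11 of 36 tested rows of the same libraries (median log2 change 0.79), beside 3.46% of all tested rows. Their part in the tmem38a level was not tested. Its relative tmem38b was at 5.31, 5.66 and 2.56 FPKM in the libraries labelled hypoxia, against 4.23, 2.39 and 2.66 FPKM in those labelled control, and overlapped. The other tested rows of this kind, most of them kctd genes whose proteins share the tetramerization domain of voltage-gated channels and form no pore, did not pass. Groups did not overlap in 4 tested rows that were higher, tmem38a among them, and 4 that were lower in the libraries labelled hypoxia. All 25 tested rows hold an Ensembl transcript. Over all tested rows with an Ensembl transcript, 40.5% did not overlap and 8.46% were called. Of the lower ones, kctd12b was at 0.52, 0.392 and 0.24 FPKM in the libraries labelled hypoxia, against 1.37, 1.199 and 2.47 FPKM in those labelled control (log2 change -0.93, limma adjusted p = 0.105). Of the higher ones, kctd9a was at 4.39, 3.62 and 3.62 FPKM in the libraries labelled hypoxia, against 2.55, 3.02 and 2.90 FPKM in those labelled control (log2 change 0.35, adjusted p = 0.172).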
